A study of Mus musculus with 6 samples.

Results

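The genes examined here carry out antigen presentation by major histocompatibility complex (MHC) class II molecules. They are H2-Aa, H2-Ab1, H2-Eb1, H2-DMa, H2-DMb1, Cd74 and Ciita, and they were found as the non-control array probes whose transcript accession maps to these symbols in RefSeq. All 7 genes were present, on 8 probes, among 20284 genes and 55681 probes of the array. Of these, 6 genes passed the filter on dim probes, and Ciita did not.

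Liver RNA came from male Apoe-deficient mice on the C57BL/6J background, which lack apolipoprotein E and develop high plasma cholesterol and atherosclerosis. Both groups carried this deletion and both ate a Western diet with palm oil at 20% and cholesterol at 0.15% for 11 weeks, so neither is a wild-type or a chow-fed liver. The Western group held 9 mice, and the squalene group held 10 mice whose diet also contained 1% squalene, stated to equal 1 g per kg of body weight. Squalene is a precursor in cholesterol synthesis and a component of olive oil.

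RNA was pooled from 2 or 3 animals before labelling, which left 4 pools per diet and no value for a single mouse. Each two-colour Agilent array carried 1 squalene pool and 1 Western pool, and 200 ng of RNA was labelled per pool. The 6 arrays formed 4 pool pairs, and the pair was the replicate (n = 4). Squalene was in the red dye (Cy5) in pairs 1 and 4 and in the green dye (Cy3) in pairs 2 and 3. Pairs 1 and 2 had a second array on another slide, and repeat arrays were averaged. A channel had 46.64% to 51.87% of 62976 spots well above background, and no spot was saturated. Repeat arrays correlated over all features at r = 0.847 and 0.879. The 8 hepatocyte markers were all measured, with summed intensities from 736776 to 1007760 over the 8 pools.

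MHC class II molecules sit on dendritic cells, B cells, macrophages and some liver sinusoidal cells, where they show peptides from engulfed proteins to CD4+ T cells. A heterodimer of an alpha and a beta chain forms in the endoplasmic reticulum, is held there and escorted to endosomes by the invariant chain, and is loaded with peptide in exchange for an invariant chain fragment. Transcription of these genes depends on the coactivator CIITA, which binds no DNA itself and is recruited by a complex assembled on paired promoter elements, the X box and the Y box.

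Promoter sequences holding cores of these elements are shown first, and any part of theirs in the values below was not tested. RefSeq promoter windows (build GRCm38.p6) were at hand for 4 of 6 genes looked up, with no entry for H2-Ab1 or Ciita, and Cd74 was not looked up. Each run of 80 bases below covers positions -110 to -31 before the transcript start, on the strand of the gene, and capitals mark the X box core (GNAACT) and, after it, the Y box core (GATTGG, which holds CCAAT on the other strand).
H2-Aa: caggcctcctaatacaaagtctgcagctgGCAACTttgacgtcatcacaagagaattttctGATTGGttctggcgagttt
H2-Eb1: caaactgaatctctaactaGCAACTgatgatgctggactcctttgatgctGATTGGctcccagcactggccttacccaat
H2-DMb1: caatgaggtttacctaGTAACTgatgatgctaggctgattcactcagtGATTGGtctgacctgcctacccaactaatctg

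These windows lie at chr17:34287854-34287933 on the minus strand for H2-Aa, at chr17:34305757-34305836 on the plus strand for H2-Eb1 and at chr17:34153081-34153160 on the plus strand for H2-DMb1. The starts of both cores were 32 bases apart in H2-Aa, 31 in H2-Eb1 and 32 in H2-DMb1. Among 32851 RefSeq promoters searched over 250 bases upstream on both strands, 14.6% held the Y core and 37.3% held the X core. An X core starting 20 to 40 bases before a Y core on the same strand was found in 0.283% of them (93 promoters). Of the 2 entries for H2-DMa, the first held neither core and the second held a Y core at -199. The letters searched were chosen after these sequences had been read, so the match is a description.

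The classical class II chains, which form the peptide-binding groove, were examined for a difference between the diets. Values are log2 ratios of squalene over Western, so 0 means equal signal. H2-Aa, the alpha chain of the I-A molecule, was at 0.72, -0.56, -0.996 and -0.26 in pairs 1 to 4. H2-Ab1, the I-A beta chain, was at 0.97, -0.54, -1.06 and -0.25 in the same pairs, and its second probe was at 0.92, -0.44, -0.88 and -0.39. Pair 1 stood above 0 and the other 3 pairs below 0 in each case, and both probes of H2-Ab1 gave the same picture. H2-Eb1, the beta chain of I-E, was at 0.83, -0.54, -0.92 and -0.22. C57BL/6 mice do not express the I-E alpha chain and so show no I-E at the cell surface, although the H2-Eb1 transcript is made.

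The mean log2 ratio was -0.27 ± 0.73 (SD, n = 4) for H2-Aa, -0.22 ± 0.86 for H2-Ab1 and -0.21 ± 0.75 for H2-Eb1, each smaller than its spread between pairs. None of the 3 genes passed the test of squalene against Western (limma with a term for dye orientation, Benjamini-Hochberg adjusted p = 0.9999 for each). Unadjusted p-values in limma, a model fitted across all features, were 0.179, 0.347 and 0.297, with standard errors of 0.18, 0.21 and 0.18.

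**Figure D1:**
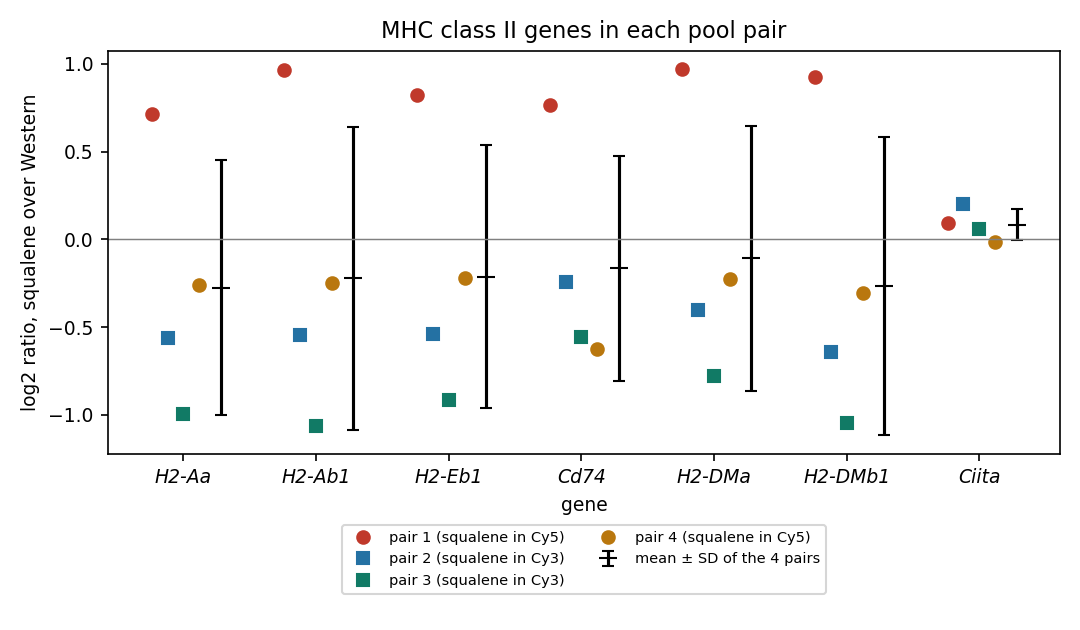
The log2 ratio of squalene over Western (vertical axis) is plotted for each gene (horizontal axis) in the 4 pool pairs, circles for squalene in Cy5 and squares for squalene in Cy3, with the mean ± SD of the pairs as a bar. In all 6 measured genes pair 1 lies between 0.72 and 0.97 while pairs 2, 3 and 4 lie below 0, and the values of Ciita stay between -0.015 and 0.20.

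Cd74, the invariant chain that blocks the groove and sorts class II molecules to endosomes, was at 0.76, -0.24, -0.56 and -0.63 in pairs 1 to 4. H2-DMa, the alpha chain of the DM molecule that edits bound peptides, was at 0.97, -0.40, -0.78 and -0.22. H2-DMb1, a DM beta chain, was at 0.93, -0.64, -1.05 and -0.31. Chaperone and editor thus followed the classical chains in sign in all 4 pairs, with pair 4 lowest for Cd74 and pair 3 lowest for the DM chains. The means were -0.17 ± 0.64 for Cd74, -0.11 ± 0.76 for H2-DMa and -0.27 ± 0.85 for H2-DMb1 (SD, n = 4). None of these passed the test of squalene against Western either (limma, Benjamini-Hochberg adjusted p = 0.9999, unadjusted p = 0.505, 0.617 and 0.262).

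Ciita, the coactivator that switches the other genes on, was near the limit of detection, with 8 of its 12 channel readings well above background and 2 of 4 pairs detected in either diet. Its log2 ratios were 0.09, 0.20, 0.06 and -0.015 in pairs 1 to 4, a mean of 0.08 ± 0.09 (SD, n = 4). These values rest on a signal close to background and set no limit on a change in Ciita. Without the filter on dim probes, limma gave it an unadjusted p of 0.141 and a Benjamini-Hochberg adjusted p of 0.99996 over 37146 features.

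Over the 6 measured genes, 0 passed an adjusted p of 0.05 for squalene against Western, and 0% of 20658 features did (limma, Benjamini-Hochberg). At an unadjusted p under 0.05 the count was again 0 of 6, against 2.47% of features (510). All 6 had a mean below 0, as had 48.2% of features. No member lay below 0 in all 4 pairs, which 3.05% of features did. The median of the 6 fitted ratios was -0.22, against 0.0028 over all features. The 6 ratios come from the same 8 pools and are not 6 independent observations.

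The ratios were widely spread between pairs. The SD of the log2 ratio between the 4 pairs ran from 0.64 for Cd74 to 0.86 for H2-Ab1, where the median over all features was 0.16. These SDs exceeded those of 97.9% of features for Cd74 and 99.3% for H2-Ab1, with the other 4 genes between them. The sign order, above 0 in pair 1 and below 0 in pairs 2, 3 and 4, was shown by all 6 genes and by 6.43% of features. This order was noticed in the values and then counted, so it has no test. Repeat arrays of a pair were much closer. The H2-Aa ratio was 0.71 and 0.72 on the arrays of pair 1 and -0.59 and -0.53 on those of pair 2. Over all 8 probes the repeat arrays differed by -0.16 to 0.19. The repeats cover pairs 1 and 2, share pools and dye orientation, and so measure array noise and not the variation between pools or dyes. Pair 1 did not pass Dixon's outlier test in any measured gene, where 0 of 18 sets of 4 ratios or 4 levels passed the 95% critical value. With 4 values in a set this test has little power, and the 18 sets come from the same pools. It therefore cannot decide whether pair 1 was an outlier.

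**Figure D2:**
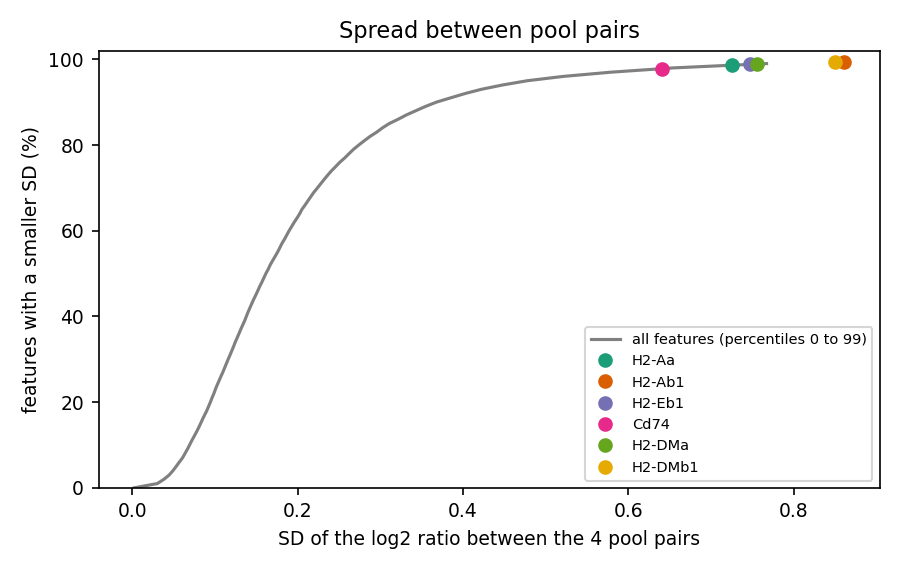
The share of all 20658 features with a smaller SD (vertical axis, percent) is plotted against the SD of the log2 ratio between the 4 pool pairs (horizontal axis), as a line drawn from percentile 0 to 99, with the 6 measured class II genes as points. The genes sit at SDs of 0.64 to 0.86, at or beyond the upper end of the line, and the median feature lies at 0.16.

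The levels of single pools show which pools differed. Levels are log2 intensities per channel after normalisation, given for each gene as the difference from the mean of its 4 Western pools. This scale was added after the ratios had been seen, and it keeps any dye bias of a probe, so levels with each dye's mean taken out are given after it. H2-Ab1 was at -0.04, 0.06, 0.15 and -0.17 in the Western pools of pairs 1 to 4, and at 0.93, -0.48, -0.92 and -0.42 in the squalene pools. H2-Aa was at 0.04, 0.12, 0.05 and -0.21 in the Western pools and at 0.76, -0.44, -0.94 and -0.47 in the squalene pools. Cd74 was at 0.13, -0.11, -0.02 and 0.00 in the Western pools and at 0.89, -0.35, -0.58 and -0.62 in the squalene pools. On this scale the squalene pool of pair 1 lay above all Western pools of these genes, and the squalene pools of pairs 2, 3 and 4 lay below all of them.

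H2-Eb1 was at 0.07, 0.01, 0.14 and -0.22 in the Western pools and at 0.89, -0.52, -0.78 and -0.44 in the squalene pools. H2-DMa was at -0.06, 0.10, 0.09 and -0.13 in the Western pools and at 0.91, -0.31, -0.69 and -0.36 in the squalene pools. H2-DMb1 was at -0.13, 0.08, 0.14 and -0.10 in the Western pools and at 0.80, -0.56, -0.90 and -0.40 in the squalene pools. On this scale the same arrangement held for all 6 measured genes and for the second probe of H2-Ab1, and 1.9% of features showed it. Across the 6 genes the mean was 0.002, 0.04, 0.09 and -0.14 in the Western pools and 0.86, -0.44, -0.80 and -0.45 in the squalene pools. Ciita was at 0.08, -0.07, -0.02 and 0.01 in the Western pools and at 0.18, 0.13, 0.04 and -0.003 in the squalene pools, which overlap.

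With each dye's mean taken out, the scale planned for these levels, the arrangement held for 3 of the 6 genes, H2-Eb1, H2-DMb1 and Cd74, against 0.562% of features. The mean over the 6 genes was then 0.35, -0.09, -0.04 and 0.21 in the Western pools of pairs 1 to 4, and 0.73, -0.10, -0.45 and -0.59 in the squalene pools. The Western pool of pair 1 was thus the second highest of the 8, and the squalene pool of pair 2 lay inside the Western range for H2-Aa, H2-Ab1 and H2-DMa. H2-Aa ran from -0.06 to 0.43 in the Western pools, and was at 0.64, -0.05, -0.55 and -0.58 in the squalene pools. Cd74 ran from -0.15 to 0.33 in the Western pools, and was at 0.86, -0.16, -0.38 and -0.66 in the squalene pools. On both scales the squalene pool of pair 1 lay above all Western pools, and those of pairs 3 and 4 below all of them, in all 6 genes. Taking out the dye means also takes out any real difference between the mean of the Cy5 pools and that of the Cy3 pools.

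**Figure D3:**
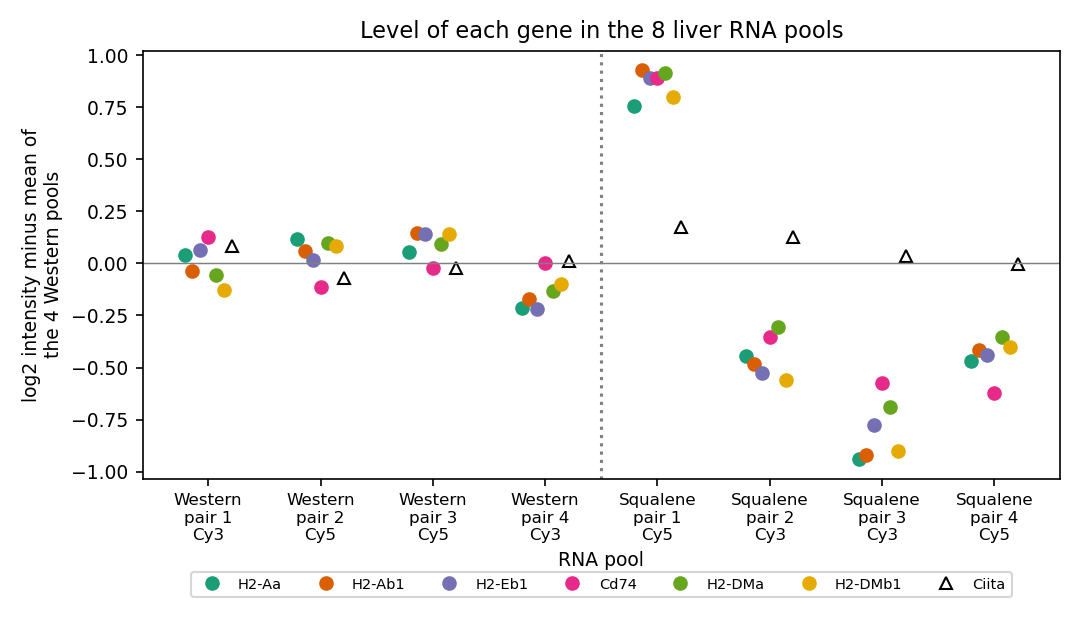
The log2 intensity of each gene minus the mean of its 4 Western pools (vertical axis) is plotted for the 8 RNA pools (horizontal axis, with pair and dye), filled circles for the 6 measured genes and open triangles for Ciita. The circles of the 4 Western pools lie between -0.22 and 0.15, those of the squalene pool of pair 1 between 0.76 and 0.93, and those of the other 3 squalene pools between -0.94 and -0.31.

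The SD over the 4 squalene pools was 2.42 to 3.29 times that over the 4 Western pools with the dye means taken out, lowest for H2-Eb1 and highest for H2-DMa. Over all features the median of that ratio was 1.01, and 7.04% of features had a ratio at least as high as that of H2-Eb1. Without taking out the dye means it was 4.83 to 7.21, against a median of 1.10 over all features, and 1.91% of features had a ratio of 4.83 or more. With 4 pools per diet such a ratio carries a wide error, and it was not tested. The 6 genes varied together over the 8 pools. Pearson's r ran from 0.908 to 0.993 (median 0.979) over their 15 pairings, and from 0.958 to 0.991 after each dye's mean had been taken out. The pools that enter these correlations share arrays and normalisation, and the squalene pool of pair 1 was the highest of the 8 in all 6 genes.

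Dye and pool are entangled in this design, because the pairs with squalene in Cy5 are pairs 1 and 4. The orientation term of the fit, the mean ratio of those pairs minus that of pairs 2 and 3, was 1.01 for H2-Aa, 1.16 for H2-Ab1, 1.03 for H2-Eb1, 0.96 for H2-DMa, 1.15 for H2-DMb1 and 0.47 for Cd74. None passed an adjusted p of 0.05 (limma, Benjamini-Hochberg adjusted p from 0.298 to 0.662), as 0% of features did. At an unadjusted p under 0.05 the term was above 0 for 4 of the 6 genes, H2-Aa, H2-Ab1, H2-Eb1 and H2-DMb1, against 8.91% of features. Both Cy5 pairs lay above both Cy3 pairs in 5 of the 6 genes, Cd74 being the exception, against 26.5% of features.

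Within the Western pools, the Cy5 mean minus the Cy3 mean was between -0.13 for Cd74 and 0.23 for H2-DMb1. Within the squalene pools the same difference was between 0.60 for Cd74 and 0.96 for H2-Ab1. Pair 4, also with squalene in Cy5, lay below 0 in all 6 genes. Alb, which encodes albumin and was picked after its values were known, was also higher in both Cy5 pairs, at 0.57, -0.25, -0.55 and 0.24 in pairs 1 to 4. It was 1 of 4 among 8 hepatocyte markers with both Cy5 pairs above both Cy3 pairs. Cps1, of the same list, was lower in both Cy5 pairs, at -0.13, 0.31, 0.71 and -0.25. With 2 pairs in each orientation, a dye effect and a difference between the pools that share a dye cannot be told apart.

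The direction of the diet ratio depended on which pools entered the fit and on their weights in it. The dye term gave both orientations equal weight. With a pair left out, the 1 pair left in its orientation therefore weighed as much as the other 2 together. Without pair 1 the 6 ratios fell between -0.57 for H2-DMb1 and -0.41 for H2-DMa. Pair 4 was then the only pair with squalene in Cy5, so the residual spread came from pairs 2 and 3 alone. Without pair 4, H2-Aa was at -0.03 and the others were above 0, at 0.08 for H2-Ab1, 0.05 for H2-Eb1, 0.18 for Cd74, 0.19 for H2-DMa and 0.04 for H2-DMb1. Without pair 2 the ratios were between -0.38 and -0.20, and without pair 3 between -0.17 and -0.01. Each fit that left out a pair kept 1 pair in that pair's dye orientation, so its p-values are not given for the 6 genes. On slide 2 alone, which carried all 4 pairs, the ratios ran from -0.27 to -0.09, and with a term for slide and the pair as a random block from -0.25 to -0.09.

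**Figure D4:**
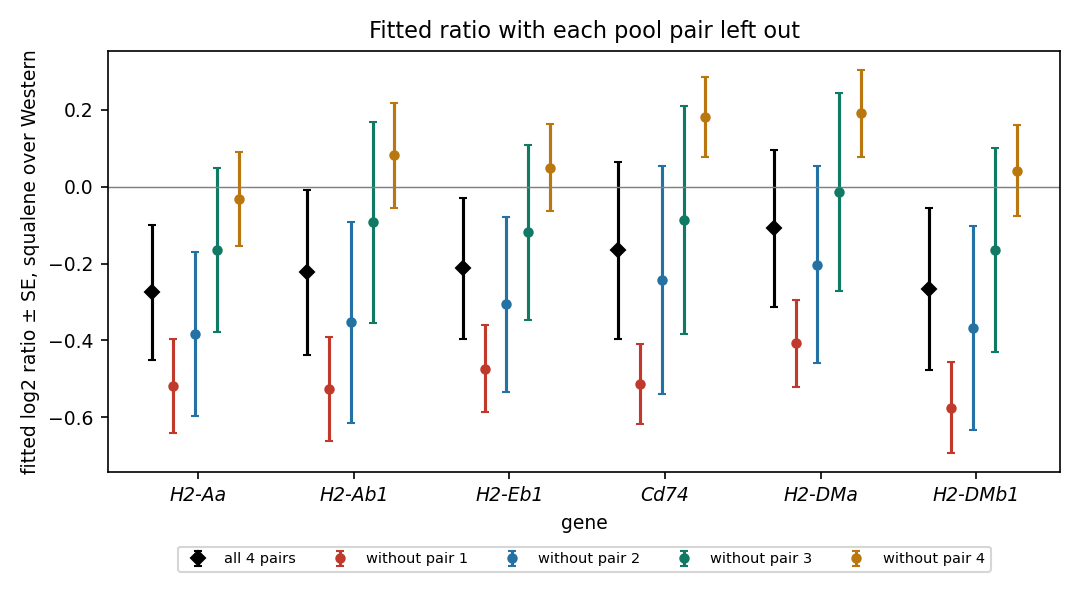
The fitted log2 ratio of squalene over Western with its standard error (vertical axis) is plotted for the 6 measured genes (horizontal axis), once with all 4 pool pairs and once without each pair. Without pair 1 all 6 ratios lie between -0.57 and -0.41, and without pair 4 they lie between -0.03 and 0.19.

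Other genes of the pathway were taken from lists by step. Over all features, 48.2% lay below 0 on average and 6.43% showed the sign order of the class II genes. Genes of a list share the same pools and are not independent observations. Of the remaining class II chains and editors, 2 of 5 were measured. H2-Eb2 and H2-DMb2 did not pass the filter and no probe was matched to H2-Ea. H2-Oa and H2-Ob, the chains of the DO molecule that restrains DM in B cells, were at 0.54, -0.18, -0.42 and -0.0032 and at 0.40, -0.07, -0.26 and 0.07 in pairs 1 to 4. Both stood highest in pair 1 and lowest in pair 3, as the measured class II chains did.

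Among the endosomal enzymes, 7 of 7 were measured and 0 passed an adjusted p of 0.05 (limma, Benjamini-Hochberg) or an unadjusted p under 0.05. The list's median ratio was -0.14, and 7 of 7 lay below 0 on average, against 48.2% of features. Ctss, the protease that removes the invariant chain in antigen-presenting cells, was at 0.42, -0.31, -0.94 and -0.29. Lgmn, an asparaginyl endopeptidase, was at 0.04, 0.02, -0.53 and -0.42. Ifi30, the thiol reductase that unfolds antigens, was at 0.69, -0.03, -0.75 and -0.48 and was named after its values were seen. The sign order of the class II genes was shown by 3 of the 7, Ctsb, Ctss and Ifi30.

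The factors that bind the X and Y boxes and recruit CIITA had mean ratios near 0, though single pairs ranged further. Of 7 listed, 6 were measured, and Rfx5 did not pass the filter. The list's median was 0.03, with pair medians of 0.06, 0.09, -0.06 and -0.01. The sign order of the class II genes was shown by 0 of 6, against 6.43% of features. Creb1, which binds the X2 part of the X box, was at 0.06, 0.04, 0.14 and 0.08, and Nfyc, a subunit of the Y box factor NF-Y, at -0.05, 0.10, 0.22 and -0.10. None passed an adjusted p of 0.05 (limma, Benjamini-Hochberg) or an unadjusted p under 0.05.

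The interferon gamma route, which induces Ciita, was measured for 6 of 7 genes, Ifng itself not passing the filter. Of the 6, 4 lay below 0 on average and 0 passed an adjusted p of 0.05 (limma, Benjamini-Hochberg) or an unadjusted p under 0.05. Pair medians were 0.17, -0.10, -0.33 and -0.01. The receptor chain Ifngr1 was at 0.19, -0.29, -0.48 and -0.05, and Ifngr2 at 0.07, -0.19, -0.25 and 0.03. Irf1 was at 1.39, 0.22, -0.61 and -0.52 and was named after its values were seen. The mean level of these 6 genes correlated with that of the class II genes over the 8 pools at r = 0.968, and at r = 0.956 after each dye's mean had been taken out.

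The surface turnover genes, all 3 measured, had a median of -0.01. Marchf8, a ubiquitin ligase that removes class II from the surface, was at -0.10, -0.06, -0.0032 and 0.02. Cd83, which protects class II from it, was at -0.17, -0.03, -0.40 and 0.70. Marchf1, a related ubiquitin ligase named so that all 3 genes are given, was at 0.07, -0.09, -0.28 and 0.27. None of the 3 showed the sign order of the class II genes, but Marchf1 shared it in pairs 1, 2 and 3. The 4 costimulatory genes had a median of -0.05 and lay below 0 on average in 4 of 4. Cd80, a ligand of CD28 on T cells, was at 0.12, 0.01, -0.40 and -0.45, and Icosl, the ligand of ICOS, at 0.53, -0.14, -0.56 and -0.05. Neither list had a member past an adjusted p of 0.05 (limma, Benjamini-Hochberg) or an unadjusted p under 0.05.

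**Figure D5:**
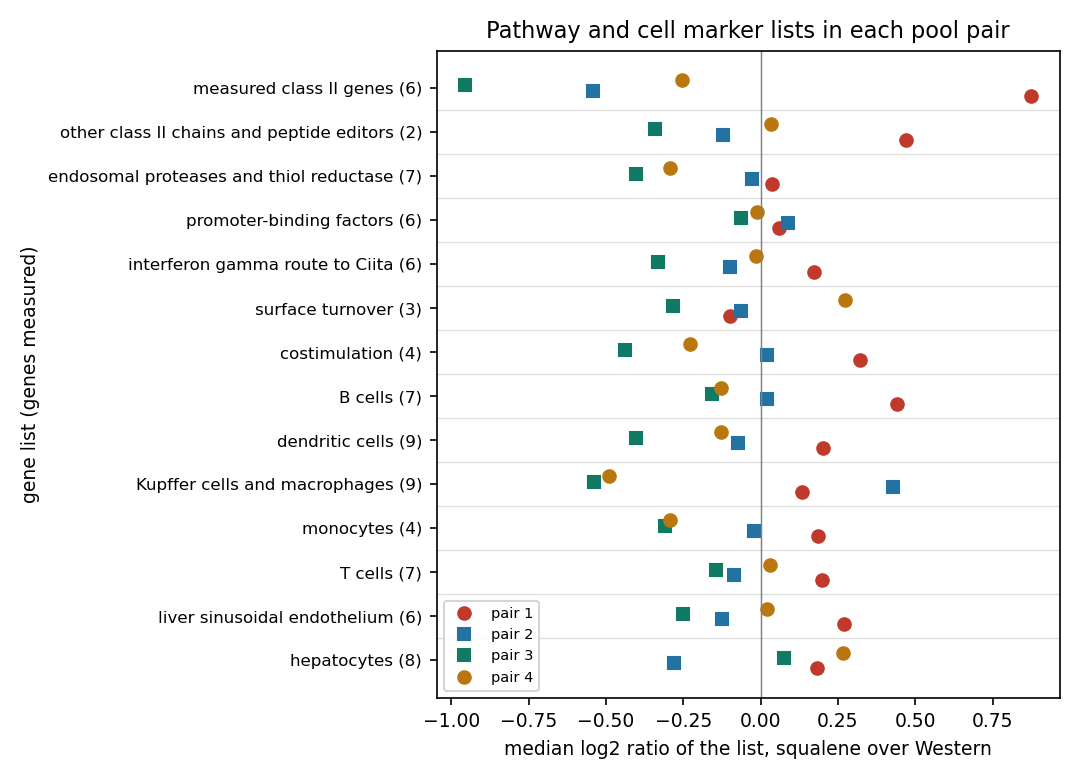
The median log2 ratio of squalene over Western (horizontal axis) is plotted for the 6 measured class II genes and for each pathway and cell marker list (vertical axis, with the number of genes measured) in the 4 pool pairs, circles for squalene in Cy5 and squares for squalene in Cy3. The class II genes span 0.88 to -0.96, and the dendritic cell list spans 0.20 to -0.40. Both are highest in pair 1 and lowest in pair 3. The same pairs were highest and lowest for other class II chains, endosomal enzymes, the interferon gamma route and costimulation. They were so too for B cells, monocytes, T cells and sinusoidal endothelium, but not for promoter-binding factors, surface turnover, Kupffer cells or hepatocytes.

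Markers of the cells that carry class II molecules were examined in the same pools. Beside the counts of each list stand the shares over all features, 48.2% below 0 on average and 6.43% with the sign order. In bulk liver, fewer cells of a type and less RNA per cell cannot be told apart. Of 10 dendritic cell markers 9 were measured, Xcr1 not passing the filter, and 7 lay below 0 on average. Their summed intensity, which weighs bright probes most, was 40891 to 65691 in the Western pools and 43061 to 62915 in the squalene pools, which overlap. Their mean log2 level above the Western mean was 0.01, -0.05, 0.10 and -0.06 in the Western pools. In the squalene pools it was 0.29, -0.20, -0.32 and -0.14, the arrangement of the class II genes. The monocyte, endosomal enzyme and interferon gamma lists also showed it. With the dye means taken out, the squalene pool of pair 2 lay inside the Western range, at -0.05 for dendritic cells. Ccr7, the receptor that guides dendritic cells to lymph nodes, was at 0.20, -0.72, -0.70 and 0.19, with a fitted ratio of -0.26. Itgax, which encodes CD11c, was at 0.25, -0.68, -0.71 and -0.17, with a fitted ratio of -0.33. These were the 2 markers of that list with an unadjusted p under 0.05 in limma (0.0044 and 0.0116), against 2.47% of features. Their Benjamini-Hochberg adjusted p was 0.9999. Their dye orientation terms were larger in size than their fitted ratios, at 0.90 for Ccr7 and 0.74 for Itgax. Those terms had unadjusted p-values of 0.00034 and 0.0071 in limma (Benjamini-Hochberg adjusted p = 0.090 and 0.202). The list's mean level correlated with that of the class II genes at r = 0.974 over the 8 pools, and at r = 0.964 after each dye's mean had been taken out, and 4 of 9 markers showed their sign order.

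B cell markers were measured for 7 of 10, Cd79a, Blk and Pax5 not passing the filter, and 2 of 7 lay below 0 on average. Their summed intensity was 866 to 1031 in the Western pools and 894 to 1396 in the squalene pools. Ms4a1, which encodes CD20, was at 0.95, 0.02, -0.16 and 0.01, and Fcer2a, the low-affinity IgE receptor, at 0.08, 0.03, 0.01 and 0.14. Cd79b, a chain of the B cell receptor named after its values were seen, was at 1.11, -0.09, -0.40 and -0.31. The mean level of the list correlated with that of the class II genes at r = 0.863, or 0.859 with the dye means taken out, and the highest B cell level was again in the squalene pool of pair 1, at 0.52 above the Western mean.

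Kupffer cell and macrophage markers were measured for 9 of 11, Cd163 not passing the filter and Cd68 matched to no probe, and 8 lay below 0 on average. Their summed intensity was 71474 to 116938 in the Western pools and 65829 to 126548 in the squalene pools. Pair medians were 0.13, 0.43, -0.54 and -0.49, so pair 2 was the highest here while it was below 0 in all 6 class II genes. C1qa, a complement component made by these cells, was at 0.04, -0.03, -0.42 and -0.34, and Vsig4, a complement receptor of Kupffer cells, at -0.52, 0.43, -0.54 and -0.32. The list's mean level correlated with that of the class II genes at r = 0.675, and at r = 0.862 with the dye means taken out, and 1 of 9 markers showed their sign order.

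Monocyte markers, 4 of 5 measured with Ly6c2 matched to no probe, had pair medians of 0.19, -0.02, -0.31 and -0.29, and summed intensities of 50780 to 55329 in the Western and 48552 to 54854 in the squalene pools. The chemokine receptor Ccr2 was at 0.34, -0.13, -0.43 and -0.37, and the lysozyme gene Lyz2 at 0.46, -0.07, -0.69 and -0.40. The list's r with the class II genes was 0.895, or 0.916 with the dye means taken out. Sinusoidal endothelial markers, 6 of 6 measured, had pair medians of 0.27, -0.12, -0.25 and 0.02, and summed intensities of 16980 to 18144 and of 14782 to 19283. Lyve1, a hyaluronan receptor, was at 0.42, -0.44, -0.53 and 0.12, and Stab2, a scavenger receptor, at 0.06, -0.11, -0.33 and 0.17. That list's r was 0.852, or 0.792 with the dye means taken out.

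T cells, which read class II molecules but in mice carry little of them, had 7 of 8 markers measured, Cd8a not passing the filter. Their pair medians were 0.20, -0.09, -0.14 and 0.03, and their summed intensities 8219 to 12054 in the Western and 7903 to 12404 in the squalene pools. Cd3d, a chain of the T cell receptor complex, was at 0.54, -0.08, -0.33 and 0.16, and the costimulatory receptor Cd28 at -0.03, -0.19, -0.03 and 0.003. The r of the T cell list was 0.749, or 0.648 with the dye means taken out, and that of the hepatocyte list -0.087, or -0.602. The 8 hepatocyte markers had pair medians of 0.18, -0.28, 0.07 and 0.27, and 0 of 8 showed the sign order of the class II genes. Cps1, of the urea cycle, was at -0.13, 0.31, 0.71 and -0.25, and Hpd, of tyrosine breakdown, at 0.03, -0.06, 0.56 and 0.12. No marker of these lists passed an adjusted p of 0.05 (limma, Benjamini-Hochberg), and none but Ccr7 and Itgax had an unadjusted p under 0.05. The part of cell content in the class II ratios was not tested.

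The genes most like the class II genes were ranked by Pearson's r between their level and the mean class II level over the 8 pools, each dye's mean taken out. Among 657 genes with an SD of at least 0.3 over the pools, 80 had r above 0.9. The 10 highest were Cyba, Ltb, Tmsb10, Sirpb1b, Arl5c, Pkm, Ms4a6c, Il2rg, Tmsb4x and Vav1, with r from 0.973 to 0.993. Cyba, a membrane subunit of the phagocyte NADPH oxidase, was at 0.65, -0.39, -0.86 and -0.35 in pairs 1 to 4. Ltb, lymphotoxin beta, was at 0.61, -0.31, -0.82 and -0.56. Both were above 0 in pair 1 and lowest in pair 3, as were H2-Aa, H2-Ab1, H2-Eb1 and the DM chains. Ranked without taking out the dye means, 6 of the 10 were again among the 10 highest, and ranked by the 4 ratios, 2 of the 10 were. Cyba and Ms4a6c were in all 3 sets. These values describe 8 pools that share arrays, and they were picked as the highest of many.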

How the data were processed

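The deposited scanner files gave the median spot intensity and local background intensity of both channels, extracted with Agilent Feature Extraction 10.7, per the submitters' processing notes (the file headers name version 10.7.3.1). They also hold, per the file headers, processed intensity values, log10 ratios and marks per spot. How the authors' deposited table of log10 values was made was not given in the sources used here. It equalled the raw log10 ratio of squalene over Western within 0.001 for 99.93% to 99.94% of spots, with column medians of 0.254 and 0.27 (pair 1), -0.217 and -0.257 (pair 2), -0.27 (pair 3) and 0.259 (pair 4). Both deposited columns of pair 1 were entered as a score, because 2 cells in each were far outside the range of a log ratio. Those cells were dropped.

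R 4.3.3, limma 3.58.1 and data.table (version 1.17.8) were used. Median signals stood in for the planned mean signals. They were corrected by normexp (offset 50) and normalised by loess, with 3671 control spots at weight 0 and outlier spots left out, and log2 ratios were turned to squalene over Western by the dye labels. A RefSeq table (GRCm38.p6) named 26762 of 55681 probes, and the files name an mm9 array design, so the only coordinates given are those of RefSeq's promoter windows. Probes well above background in at least 3 of 4 pairs in 1 diet's channel were kept (26853, with 28828 removed), and the brightest probe stood for a gene, which gave 20658 features. limma (lmFit, eBayes) fitted squalene and dye orientation over the 4 pairs, with 2 residual and 3.04 prior degrees of freedom and Benjamini-Hochberg adjustment. Pool levels were log2 intensities after Aquantile.

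The class II genes, the lists and the markers were chosen with earlier results of these data known. All 7 genes and their probes were to be named, with the 2 genes of each list with the smallest unadjusted p and the 10 genes most like them. Alternatives covered the normalisation and background correction, the dim-probe filter, the dye and slide terms, repeat arrays, several probes of a gene, the variance model, the authors' table and leaving out each pair. For squalene against Western, the model was tested on simulated data with 20658 features. It called 46 of 50 features changed by 1 on the log2 scale, 50 of 50 changed by 2, 3 or 4, and 11 of 20458 unchanged ones. In the data, the standard errors of the measured class II genes ran from 0.18 to 0.23, against a median of 0.065 over all features. The simulation therefore does not show that a change of 1 would be called in these genes. The single-gene result of 1 listed gene is not reported here, and the list counts include it.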

Additional observations from a re-analysis of the deposited data

How the results depend on the processing

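The median ratio of the 6 measured class II genes ran from -0.23 to -0.18 over the settings that kept all 4 pairs and from -0.52 to 0.07 when 1 pair was left out. Leave-one-out ratios ran from -0.51 to 0.18 for Cd74, -0.53 to 0.081 for H2-Ab1, -0.41 to 0.19 for H2-DMa, -0.57 to 0.042 for H2-DMb1 and -0.47 to 0.049 for H2-Eb1, the values above 0 all coming without pair 4. H2-Aa stayed below 0, from -0.52 to -0.03. In the fit without pair 4, pair 1 weighed as much as pairs 2 and 3 together. With all 4 pairs kept, the 6 genes stayed below 0 under each setting run. None passed a Benjamini-Hochberg adjusted p of 0.05 in limma under any setting that kept all 4 pairs. Over all features, the count past an adjusted p of 0.05 for squalene was 0, but 2 with median centring, 3 with all 6 arrays, a slide term and the pair as a random block, and 9 with the authors' deposited table. At an unadjusted p under 0.05 it was 510, but 201 with median centring, 935 without the dim-probe filter, 254 without the dye term, 187 with the authors' table, and 363 to 1308 leaving out 1 pair. For dye orientation it was 0, but 2228 with median centring, 172 with the slide term and random block and 4059 with the authors' table. The cause of these changes was not tested. Of the 10 genes most like the class II genes, 2 were shared with the ranking by ratios and 6 with the ranking of levels without dye centring, the latter chosen after seeing the data. The squalene pool of pair 1 lay above all Western pools and the other 3 below all of them for 3 of the 6 genes on dye-centred levels and for 6 without dye centring, also chosen after seeing the data. The number of arrays, 6 for 4 pool pairs, limits the precision. Each pool averages 2 or 3 mice and the spread measured is that between pools, so no value here describes how single animals differed. The ratio of Ciita rests on a signal close to background.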
